A study of Mus musculus with 3 samples.

Results

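The regions described here are 290 binding peaks of Tcf1 that lie between genes and appear in the peak lists of both regulatory T cells (Treg cells) and conventional CD4 T cells of the mouse. They were taken from 4519 peaks of the conventional list in all, of which 4462 lie on chromosomes 1 to 19. The regions were chosen by overlap of their peaks between the lists and by place. A conventional peak was kept if it shared 1 bp or more with any of the 3402 Treg peaks and its midpoint lay outside every annotated gene and more than 1 kb from every gene end. Each list came from 1 library of chromatin immunoprecipitated with an antiserum against Tcf1, and coordinates are those of mm10. Treg cells were sorted as TCRb+ CD4+ CD25+ cells positive for the Foxp3-Cre-GFP reporter, and conventional cells as TCRb+ CD4+ CD25- cells negative for it. Both came from the spleens of wild-type Foxp3-Cre-GFP mice aged 8 to 10 weeks, in which Foxp3, the gene of the Treg lineage factor, drives the reporter. The tissue label of the conventional sample reads effector CD4 T cells, and it is named here by its sort. The labels do not say how many mice gave each sample. A library from Tcf1-deficient cells of CD4-Cre+ Tcf1 fl/fl mice was not analysed here. The lists hold no expression values, so cell identity could not be checked against marker genes.

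Tcf1, encoded by Tcf7, belongs to the TCF/LEF family of factors that bind DNA through a high mobility group box. The family carries Wnt signals together with beta-catenin, and in T cells it also acts with other partners to set up the lineage and to keep naive and memory cells in place. Sites between genes include enhancers, which act on genes at a distance. The nearest gene is given below for orientation and is not a measured target.

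MicroRNA genes were the nearest gene at 6 of 290 regions (2.07%, exact 95% interval 0.763% to 4.45%), at 5 loci, close to the 2.42% that microRNA genes make up of all genes on these chromosomes. These were singled out after their values were seen, because several of the loci encode microRNAs well known in T cells. The mature sequences are shown from RefSeq (GRCm38.p6), 5′ to 3′, with the seed (bases 2 to 8) in capitals, since the seed sets which messages a microRNA represses. All 11 microRNA genes at the loci, counted as the nearest one and those within 3000 bp of it, matched the table, and the better known arms are printed.
miR-142a-5p: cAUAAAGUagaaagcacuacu
miR-142a-3p: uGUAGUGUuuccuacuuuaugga
miR-146a-5p: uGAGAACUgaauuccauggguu
let-7a-5p: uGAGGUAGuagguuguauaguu
let-7f-5p: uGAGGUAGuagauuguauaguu
let-7d-5p: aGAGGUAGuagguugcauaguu
miR-23a-3p: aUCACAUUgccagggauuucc
miR-27a-3p: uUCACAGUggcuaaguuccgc
miR-24-3p: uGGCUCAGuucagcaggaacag
The 3 let-7 arms share the seed GAGGUAG, and the other arms shown each have a seed of their own.

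Promoter sequences from RefSeq (GRCm38.p6) are shown for Tcf7, Fos and Nfkbia, which had both a region between genes and a shared peak over a promoter, as did 4 more genes of the lists (Lef1, Btg1, Nr4a1 and Socs1). At Lef1 the conventional peak reached into the promoter and the Treg peak did not. The listed promoters of Lef1 and Nr4a1 lie wholly inside the annotated genes, and neither gene had a shared peak within 1 kb of an end. Each window printed is 300 bases, 5′ to 3′ on the strand of the gene, with capitals for bases inside both the Treg and the conventional peak.
Tcf7, chr11:52282965-52283264, minus strand: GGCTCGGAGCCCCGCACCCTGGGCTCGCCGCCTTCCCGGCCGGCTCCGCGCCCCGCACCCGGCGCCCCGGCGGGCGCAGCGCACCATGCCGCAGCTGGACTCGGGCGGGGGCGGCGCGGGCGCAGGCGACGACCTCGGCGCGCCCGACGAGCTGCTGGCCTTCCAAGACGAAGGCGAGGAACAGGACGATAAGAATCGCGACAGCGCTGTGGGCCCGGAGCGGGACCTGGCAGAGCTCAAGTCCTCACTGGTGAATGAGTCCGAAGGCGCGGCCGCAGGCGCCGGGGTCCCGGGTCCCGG
Fos, chr12:85473640-85473939, plus strand: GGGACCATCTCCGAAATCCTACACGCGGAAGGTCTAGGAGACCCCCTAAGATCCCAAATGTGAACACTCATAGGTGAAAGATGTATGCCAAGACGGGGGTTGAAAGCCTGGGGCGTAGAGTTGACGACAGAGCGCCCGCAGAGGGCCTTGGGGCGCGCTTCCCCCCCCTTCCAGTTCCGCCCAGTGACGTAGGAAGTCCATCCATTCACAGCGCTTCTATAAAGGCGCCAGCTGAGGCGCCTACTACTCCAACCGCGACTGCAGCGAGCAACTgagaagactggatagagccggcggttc
Nfkbia, chr12:55492598-55492897, minus strand: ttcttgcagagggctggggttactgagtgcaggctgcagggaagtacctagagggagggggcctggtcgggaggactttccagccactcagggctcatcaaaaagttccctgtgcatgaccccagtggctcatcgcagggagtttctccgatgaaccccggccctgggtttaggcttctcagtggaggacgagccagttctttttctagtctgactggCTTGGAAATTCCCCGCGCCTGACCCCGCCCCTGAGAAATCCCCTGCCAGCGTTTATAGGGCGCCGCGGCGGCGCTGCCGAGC
The Tcf7 window is listed as a promoter but lies wholly inside the annotated gene (52246527 to 52283383), downstream of its 5′ end. The Fos and Nfkbia windows cross the 5′ end of their gene. All 300 bases of the Tcf7 window lay inside both peaks, which were 1021 bp wide in Treg and 937 bp in conventional cells. At Fos 273 bases did, under peaks of 453 bp in Treg and 461 bp in conventional cells, and at Nfkbia 82 bases, under 669 bp in Treg and 1237 bp in conventional cells.

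The regions were selected on overlap between the lists, so the counts of sharing are a description. Of the 642 conventional peaks between genes, 290 overlapped a Treg peak, or 45.2% (exact 95% Clopper-Pearson interval 41.3% to 49.1%). Over all 4462 conventional peaks the share was 42.7%. At gene ends (midpoint within 1 kb) it was 1045 of 2428 peaks (43%), and inside genes 570 of 1392 (40.9%). The shares at the 3 kinds of place therefore lay within a few percentage points of one another. Seen from the Treg list, 290 of 633 peaks between genes overlapped a conventional peak (45.8%, 41.9% to 49.8%), against 1043 of 1614 at gene ends (64.6%, 62.2% to 67%) and 570 of 1043 inside genes (54.7%, 51.6% to 57.7%). The 290 conventional peaks met 288 distinct Treg peaks, because 2 Treg peaks each overlapped a pair of conventional peaks. Peaks are not replicates and each cell type had 1 library, so no test was made between kinds of place, and all intervals cover counting error only.

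Sharing was more frequent among wide peaks. In the narrowest quintile of conventional peaks between genes (279 to 322 bp) 31 of 129 were shared (24%, 16.9% to 32.3%), and in the widest quintile (552 to 1457 bp) 86 of 127 (67.7%, 58.8% to 75.7%). The regions had a median width of 388 bp in the Treg list (quartiles 324 and 500 bp) and 465 bp in the conventional list (381 and 571 bp). Unshared peaks between genes were narrower, with medians of 309 bp in the Treg list (n = 343) and 378 bp in the conventional list (n = 352). The overlap that chose the regions depends on width, so these widths are a description and carry no test.

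Most regions were narrower in the Treg list. The Treg peak was the wider one at 85 of 290 regions (29.3%, 24.1% to 34.9%), against 30.2% of all 1905 shared peaks, and the conventional peak was wider at 204. The median log2 ratio of Treg over conventional width was -0.19 (95% interval -0.26 to -0.15), against -0.23 at gene ends and -0.24 inside genes. The whole Treg list was also narrower, with a median of 366 bp against 428 bp in the conventional list. A Treg peak more than 1.5 times as wide as its partner was found at 17 regions (5.86%, against 6.35% of all shared peaks), and the reverse at 58 regions (20%, against 25%). All of these shares were close to those of shared peaks in general. The lists also differ in their narrowest peak, 240 bp in the Treg list and 279 bp in the conventional list. Whether the width ratio follows from this offset between the lists was not tested, here or for the single regions below. Without read counts in the lists, the depth behind them is unknown, and a difference in width cannot be told apart from one in depth.

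**Figure D1:**
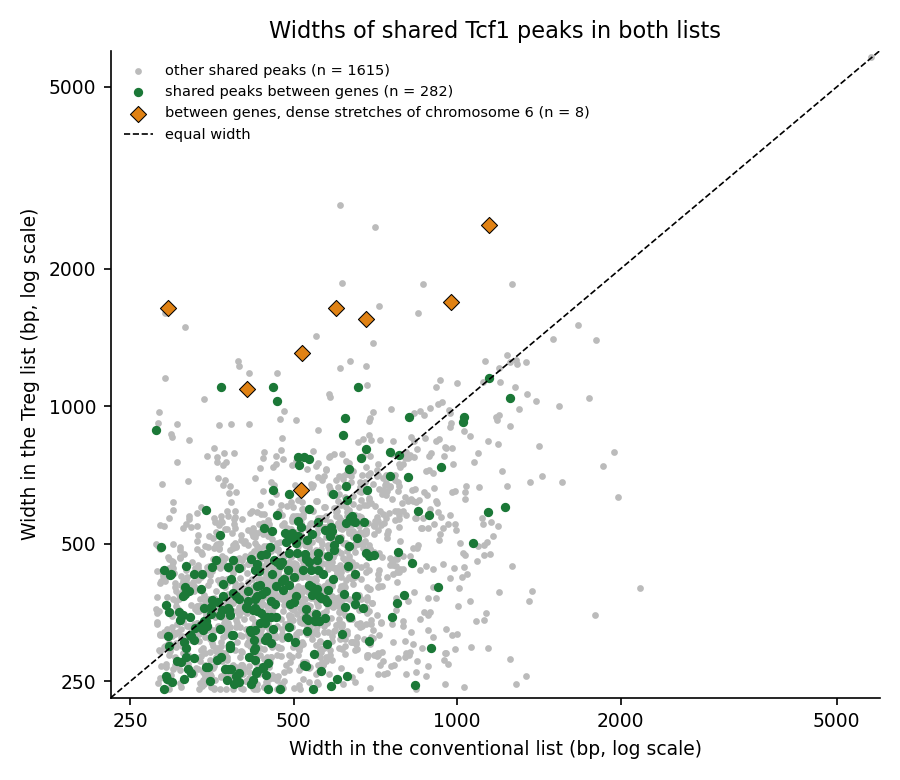
Width of each shared Tcf1 peak in the Treg list (vertical, bp, log scale) against its width in the conventional list (horizontal, bp, log scale). Green points and orange diamonds are the 290 regions between genes, grey points are shared peaks elsewhere, and most points lie under the dashed line of equal width while all 8 diamonds lie above it.

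The overlap that chose the regions limits how far apart the peaks of a pair can lie, so the offsets are a description. Midpoints lay a median of 44 bp apart (95% interval 37 to 51 bp), and at 245 of 290 regions (84.5%, 79.8% to 88.5%) they lay within 100 bp, against 70.4% of all shared peaks. Inside genes the median offset was 48 bp (43 to 53 bp) and 78.2% lay within 100 bp. At gene ends the median offset was 73 bp (66 to 78 bp) and 62.3% (59.3% to 65.2%) lay within 100 bp. Peaks at gene ends were also wider, with medians of 427 bp in Treg and 508 bp in conventional cells, which allows larger offsets, and the difference was not tested. The Treg peak lay wholly inside the conventional peak at 121 regions (41.7%, against 39% of all shared peaks), and the conventional peak inside the Treg peak at 37 (12.8%, against 11.1%). The smallest overlaps were 92 bp near Trim33, 108 bp near Skil and 170 bp near Ssbp4.

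**Figure D2:**
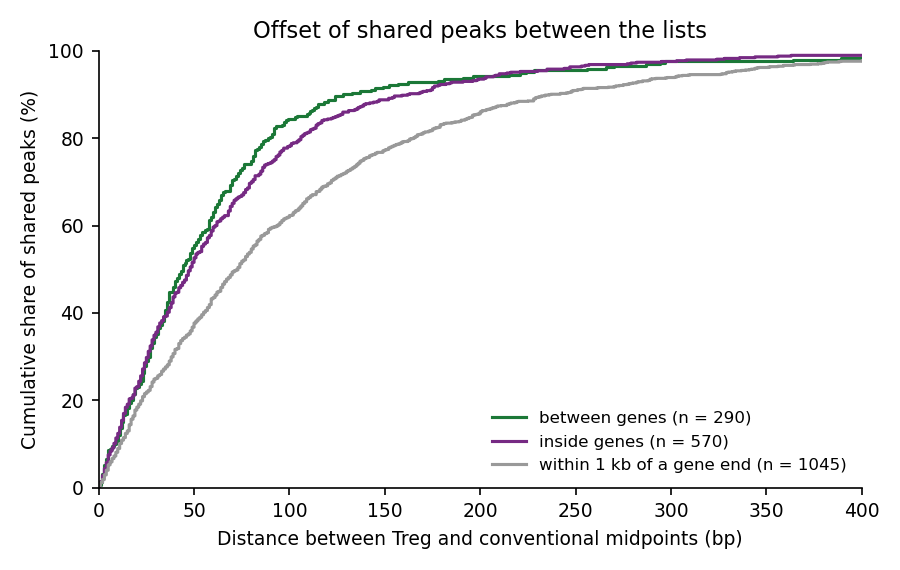
Cumulative share of shared peaks (vertical, percent) by the distance between the Treg and the conventional midpoint (horizontal, bp), for peaks between genes, inside genes and within 1 kb of a gene end. The curve for gene ends lies below the other curves, with 62.3% of peaks within 100 bp against 84.5% between genes.

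By the rule, no region lay within 1 kb of a gene end, and the distance to the nearest gene ran from 1030 to 109293 bp. The nearest gene of any kind lay a median of 7778 bp away (quartiles 3651 and 16882 bp), and the nearest protein-coding gene 19472 bp away (5748 and 54262 bp). Unshared conventional peaks between genes had medians of 7788 bp and 16210 bp, with intervals that overlap those of the shared peaks. A protein-coding gene lay within 5 kb of 65 regions, at 5 to 20 kb of 83, at 20 to 100 kb of 100, and beyond 100 kb of 42. The nearest gene was protein-coding at 132 regions (45.5%), a long noncoding RNA gene at 98 (33.8%) and a pseudogene at 46 (15.9%). For unshared conventional peaks between genes these shares were 49.1%, 34.9% and 13.4%. Of all genes on these chromosomes, the same kinds made up 43.9%, 26.4% and 18.9%. With strand taken from RefSeq, 107 regions were upstream and 85 downstream of the nearest protein-coding gene within 100 kb, or 55.7% upstream (48.4% to 62.9%), against 54.1% (47.6% to 60.5%) for unshared peaks. All chromosomes from 1 to 19 held some, from 7 on chromosome 14 to 25 each on chromosomes 6, 9 and 11.

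**Figure D3:**
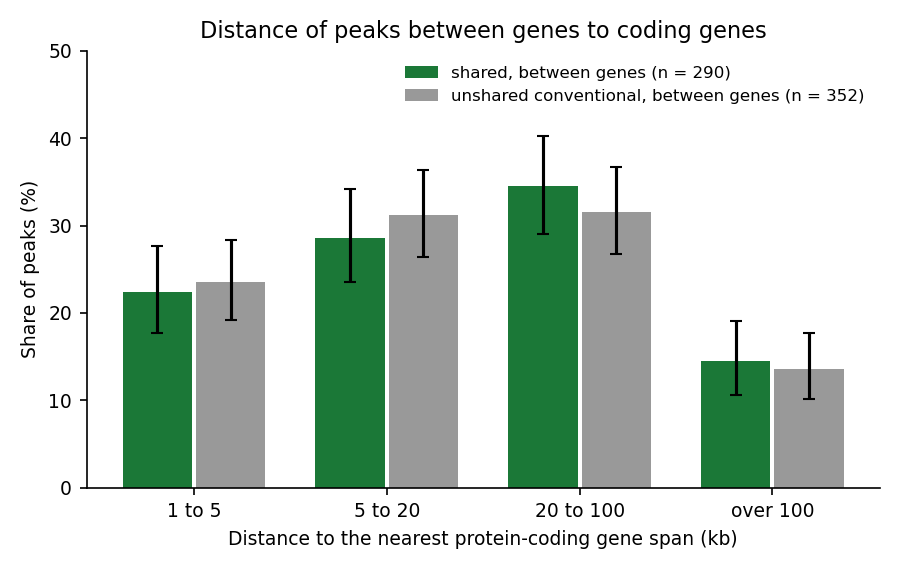
Share of peaks between genes (vertical, percent) by distance to the nearest protein-coding gene span (horizontal, kb), for shared peaks and for unshared conventional peaks. Error bars are exact 95% intervals, and the 2 kinds of peak overlap within them in every bin.

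At the 1 kb limit, the regions just inside it lay 1030 bp from Cd2, 1034 bp from Gm52861 and 1065 bp from Skil. The shared peaks just outside it lay 905 bp from Coq2, 913 bp from Gm52862 and 941 bp from Gm36416. Their widths were 304, 2487 and 1101 bp in Treg and 503, 1145 and 457 bp in conventional cells just inside, and 463, 1154 and 358 bp in Treg and 445, 290 and 515 bp in conventional cells just outside.

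The Mir142 locus on chromosome 11 encodes microRNAs made almost only in blood cells. It held a run of 4 regions over 7006 bp (87744954 to 87751959) between Supt4a, a transcription elongation factor gene, and Tspoap1. Widths were 266, 946, 362 and 324 bp in Treg cells, and 379, 1031, 672 and 340 bp in conventional cells in the same order. Each of the 4 was therefore narrower in Treg. The last 2 lay 6041 and 5052 bp from Mir142b, a microRNA gene on the strand opposite Mir142. The region of 946 bp in Treg and 1031 bp in conventional cells was among the 12 widest of the 290 by the sum of its ranks in both lists. Supt4a was the nearest protein-coding gene of 3 of the 4.

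Single regions stood at the other microRNA loci. The let-7a-1, let-7f-1 and let-7d genes form a cluster on chromosome 13, and a region 7727 bp from it (48545592 to 48546407) was 946 bp wide in Treg and 816 bp in conventional cells. The let-7 family is known for restraining proliferation. Near Mir146, whose product miR-146a damps NF-kappaB signalling, a region at a distance of 13919 bp was 388 bp wide in Treg and 437 bp in conventional cells (chromosome 11, 43388162 to 43388598). The cluster of Mir23a, Mir27a and Mir24-2 on chromosome 8 had a region 9869 bp away with 704 bp in Treg and 752 bp in conventional cells. A region 20193 bp from Gm51286 on chromosome 9 had 267 bp in Treg and 438 bp in conventional cells.

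Between the T cell receptor alpha gene Tcra and Dad1 on chromosome 14 lay a run of 3 regions. The stretch between these genes is known to hold the enhancer of the alpha chain locus, to which TCF/LEF factors bind. The widest of the 3 (54227179 to 54228324) was 1151 bp in Treg and 1146 bp in conventional cells, was among the 12 widest, and lay 3553 bp from Tcra. Its edges in the Treg list (54227178 to 54228328) differed from these by 4 bp at most. The region 1203 bp from Tcra measured 351 bp in Treg and 352 bp in conventional cells, and the one 2039 bp from Dad1 measured 944 bp in Treg and 622 bp in conventional cells. The run also held 1 unshared peak of each list, 485 bp wide in Treg and 674 bp in conventional cells.

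Another long run, with 4 regions over 38751 bp of chromosome 9 (61669623 to 61708373), lay between the long noncoding RNA genes Gm34770 and Gm34828. The nearest protein-coding gene, Rplp1 for a ribosomal stalk protein, was 205143 bp or more away. Widths were 478, 519, 533 and 578 bp in Treg cells and 679, 584, 456 and 466 bp in conventional cells. No other peak of either list lay within the run. In all, 57 of 290 regions (19.7%, 15.2% to 24.7%) fell into 24 runs of 2 or more with neighbouring midpoints at most 20 kb apart, and 20 of these runs were pairs. Another conventional peak of any kind lay within 20 kb of 127 regions (43.8%, 38% to 49.7%), of 36.4% (31.3% to 41.6%) of unshared peaks between genes, of 39.1% (35.1% to 43.3%) of shared peaks inside genes and of 23.3% (20.8% to 26%) of shared peaks at gene ends.

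The longest run stood apart from the rest in its widths. It held 6 regions over 24895 bp of chromosome 6 (47748263 to 47773157), between the predicted gene Gm40363 and Pdia4, which encodes a protein disulfide isomerase. The first region had the widest Treg peak of all 290, with 2487 bp in Treg and 1145 bp in conventional cells. The next 3 measured 1693, 1552 and 1093 bp in Treg, against 975, 679 and 410 bp in conventional cells. A single Treg peak of 1643 bp covered the last pair, of 597 and 293 bp in conventional cells, and the narrower of this pair had the highest log2 width ratio of all, 2.49. Over the whole span the Treg list had 9 peaks and the conventional list 7.

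Conventional midpoints in this run lay 4363, 10169, 4480, 4353 and 811 bp apart, and Treg midpoints 3865, 10653, 4518 and 4174 bp apart. The genes for the small Y RNAs Rny3 and Rny1 lay 8467 and 14913 bp beyond its end, and Rn4.5s, annotated as a ribosomal RNA gene, lay 93169 bp before its start. A second stretch of chromosome 6, from 47651653 to 47686913, contains Rn4.5s and held 18 peaks of 1 list. The stretch with the longest run (47738404 to 47773136) held 12 peaks of the Treg list. The second stretch held 2 regions, with 1309 and 655 bp in Treg and 517 and 515 bp in conventional cells. In these 2 dense stretches, each with at least 10 peaks of 1 list, the Treg peak was the wider one at 8 of 8 regions. The Treg peak was also the wider one at 17 of 17 shared peaks of any place in dense stretches. Dense stretches include 2 of chromosome 8 (20662190 to 20706725 and 123540397 to 123624140), which held 0 regions. Each dense stretch met the limit in 1 list only, and the one with the longest run met it through the Treg list. The stretches were thus picked from the lists compared, so both counts, and their contrast with regions outside, are a description. Outside the dense stretches 77 of 282 regions (27.3%) were wider in Treg, and the widest Treg peak was 1151 bp. Of the 17 regions more than 1.5 times as wide in Treg, 7 lay in the dense stretches, and 10 of the other 282 (3.55%) remained. No cause of the widths in these stretches was tested.

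**Figure D4:**
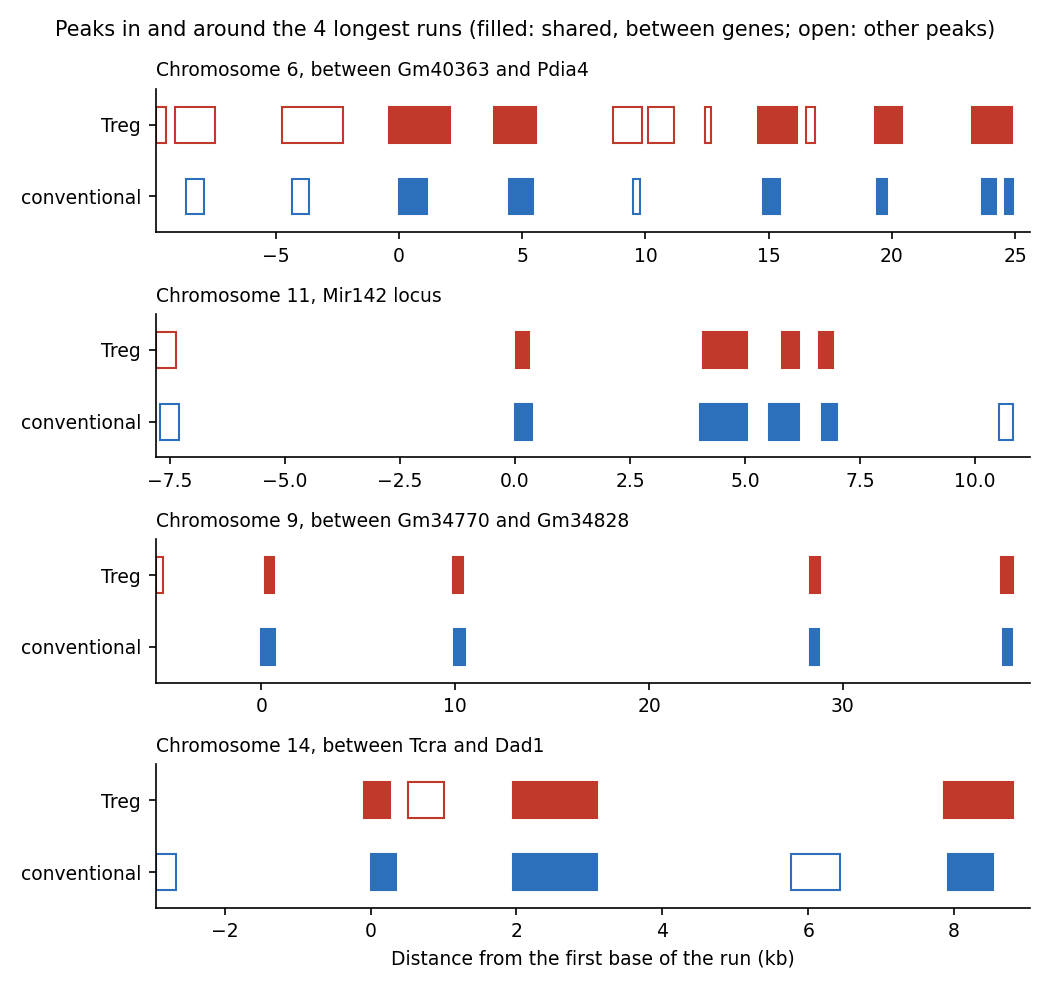
Peaks of the Treg list (upper, red) and the conventional list (lower, blue) in and around the 4 longest runs, by distance from the first base of the run (kb). Filled bars are the shared regions between genes and open bars are other peaks, and on chromosome 6 each filled Treg bar is wider than the conventional bars under it.

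Of the 12 widest regions, 5 lay in the runs on chromosomes 6, 11 and 14, and another near the let-7 cluster. The other 6 were as follows. A region 13342 bp upstream of Ifngr2, a chain of the interferon gamma receptor, was 1040 bp in Treg and 1250 bp in conventional cells (chromosome 16, 91533093 to 91534342). Socs1, an inhibitor of cytokine receptor signalling, had a region 11656 bp downstream with 794 bp in Treg and 753 bp in conventional cells (chromosome 16, 10771776 to 10772528). Near Heatr5a the widths were 922 bp in Treg and 1023 bp in conventional cells, and near Paqr7 735 bp in Treg and 932 bp in conventional cells. A region beside the noncoding gene 4933411E08Rik on chromosome 10, 106841 bp from Rap1b, had 603 bp in Treg and 1227 bp in conventional cells, a log2 ratio of -1.02. The region nearest to Samd9l, 171081 bp from it on chromosome 6 (3200787 to 3201566), had 782 bp in Treg and 780 bp in conventional cells.

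The 5 regions farthest from any gene were not among these 12. The farthest lay 109293 bp from the pseudogene Gm8797 on chromosome 3, with 452 bp in Treg and 428 bp in conventional cells, and the next 89738 bp from Gm9700, with 362 bp in Treg and 379 bp in conventional cells. On chromosome 2 a region 175264 bp from Gata3, the gene of a factor needed for T cell and Th2 development, had 252 bp in Treg and 377 bp in conventional cells (9681626 to 9682002). A region 187786 bp from Ifng on chromosome 10, beyond the noncoding gene Ifngas1, had 477 bp in Treg and 555 bp in conventional cells.

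The next comparison set the regions beside genes of known function in T cells, from 11 lists. The 224 protein-coding genes nearest to a region within 100 kb were 1.08% of all 20661 on these chromosomes. Of the genes in the 8 T cell lists, 28 of 190 (14.7%) were among them, with 29 regions. Unshared conventional peaks were nearest to 21 of the 190 (11.1%), against 1.36% of all protein-coding genes, and 6 genes had both. None of the 51 genes of the B cell, myeloid and liver lists had a region, which allows a share of up to 5.88%. The lists were chosen with results of these data known, and T cell genes carried unshared peaks at a share of the same order, so the count is a description.

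Among the 29 regions the Treg peak was wider at 7 and narrower at 22, with a median log2 ratio of -0.23. Over all 290 regions it was wider at 85 (29.3%), with a median of -0.19. Their Treg widths ran from 240 to 1029 bp and their conventional widths from 291 to 848 bp. The median distance to the gene was 10135 bp. Of the 24 with a known strand, 18 were upstream of the gene and 6 downstream. Over all regions with a known strand, 107 of 192 were upstream (55.7%, 48.4% to 62.9%), and the difference was not tested.

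The TCF/LEF genes themselves had 2 regions. At Tcf7 the region (chromosome 11, 52284229 to 52284673) lay 1068 bp upstream of the gene, just past the 1 kb limit, and was 258 bp in Treg and 445 bp in conventional cells. At Lef1, which encodes the closest relative of Tcf1, a region 95852 bp upstream was 240 bp in Treg and 542 bp in conventional cells (chromosome 3, 131014175 to 131014716). The Lef1 region was 1 of 3 at the narrowest width of the Treg list, with those nearest to Tram1 and Ccl1, and was also among the 5 farthest from any gene. No other gene of the 27 in the Wnt list had a region (2 of 27, 7.41%). Unshared conventional peaks between genes were also nearest to 2 of the 27 (7.41%).

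The list of activation genes, mostly transcription factors, had the highest share of any list, 7 of 25 genes (28%) with 8 regions. For unshared conventional peaks between genes its share was 4 of 25 (16%). Fos, a subunit of AP-1, had a pair of regions 29063 and 26633 bp upstream on chromosome 12 (85444561 to 85445094 and 85446921 to 85447593). Their widths were 457 and 557 bp in Treg, and 534 and 673 bp in conventional cells. The AP-1 genes Fosb and Fosl2 had 1 region each, with 475 bp in Treg and 444 bp in conventional cells at Fosb and 378 bp in Treg and 570 bp in conventional cells at Fosl2.

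The orphan nuclear receptor genes Nr4a1 and Nr4a3, early response genes of the T cell receptor, differed in their regions. Nr4a3 had a region 2266 bp upstream with 1029 bp in Treg and 466 bp in conventional cells (chromosome 4, 48042580 to 48043045), the highest ratio among the list genes (log2 1.14). Its 2 peaks overlapped by 359 bp, or 34.9% of the Treg peak, with midpoints 389 bp apart. Nr4a1 had one 7386 bp upstream with 362 bp in Treg and 424 bp in conventional cells. Egr1, another early response gene, had 445 bp in Treg and 354 bp in conventional cells. At Nfkbia, which encodes an inhibitor of NF-kappaB, a region 24593 bp downstream had 253 bp in Treg and 601 bp in conventional cells, the lowest ratio of the list genes (log2 -1.25).

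T cell receptor signalling genes had a region at 6 of 26 genes (23.1%), against 3 of 26 (11.5%) with an unshared conventional peak. The widest was upstream of Ptprc, which encodes the phosphatase CD45, at a distance of 16204 bp (chromosome 1, 138191537 to 138192384), with 590 bp in Treg and 848 bp in conventional cells. Vav1, an exchange factor for small GTPases, had a region 3400 bp upstream with 520 bp in Treg and 509 bp in conventional cells. The adhesion receptor gene Cd2 had 304 bp in Treg and 503 bp in conventional cells, and Cd6, the gene of a coreceptor that tunes signalling, had 358 bp in Treg and 369 bp in conventional cells. Rasgrp1, an activator of Ras, had a region 76027 bp upstream with 362 bp in Treg and 341 bp in conventional cells. Of these 6 regions, 4 were narrower in Treg, against 204 of all 290.

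Helper lineage and cytokine genes had a region at 5 of 27 genes (18.5%), against 2 of 27 (7.41%) with an unshared conventional peak. Ifng, the cytokine of Th1 cells, had one 21909 bp upstream with 576 bp in Treg and 641 bp in conventional cells (chromosome 10, 118418817 to 118419457). Il21, a cytokine of follicular helper cells, had one 17317 bp downstream with 515 bp in Treg and 501 bp in conventional cells. The receptor genes Il4ra and Il6ra had regions 9378 and 5062 bp downstream, with 263 bp in Treg and 428 bp in conventional cells at Il4ra and 350 bp in Treg and 365 bp in conventional cells at Il6ra. The remaining gene is Socs1, described above. All 5 lay within 22 kb of their gene.

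Naive and memory T cell genes had a region at 3 of 20 genes (15%). Each was narrower in Treg, as were 204 of all 290 regions. The share with an unshared conventional peak was also 3 of 20 (15%). Ccr7, the receptor for homing to lymph nodes, had one 13094 bp away with 559 bp in Treg and 648 bp in conventional cells (chromosome 11, 99130782 to 99131429). Cd27, a costimulatory receptor gene, had 345 bp in Treg and 446 bp in conventional cells, and Dapl1 had 246 bp in Treg and 388 bp in conventional cells.

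Treg signature genes had a region at 2 of 29 genes (6.9%). Both were narrower in Treg, like 204 of all 290 regions. The share with an unshared conventional peak was also 2 of 29 (6.9%). Izumo1r, which encodes folate receptor 4, had one 4199 bp upstream with 429 bp in Treg and 649 bp in conventional cells (chromosome 9, 14907826 to 14908474). Ccr8, a chemokine receptor gene of Treg cells, had one 9307 bp upstream with 282 bp in Treg and 368 bp in conventional cells. Cell cycle and survival genes had 3 of 16 (18.8%), and the same share with an unshared conventional peak. Cdkn1a, which encodes the cell cycle inhibitor p21, had 380 bp in Treg and 560 bp in conventional cells, Btg1 had 358 bp in Treg and 380 bp in conventional cells, and Fasl, the death ligand gene, had 257 bp in Treg and 291 bp in conventional cells. None of the 20 lineage and commitment factor genes had a region within 100 kb, which allows a share of up to 15%, and the Gata3 region above lay beyond that distance. Unshared conventional peaks were nearest to 2 of these 20 (10%), Runx1 and Runx3.

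**Figure D5:**
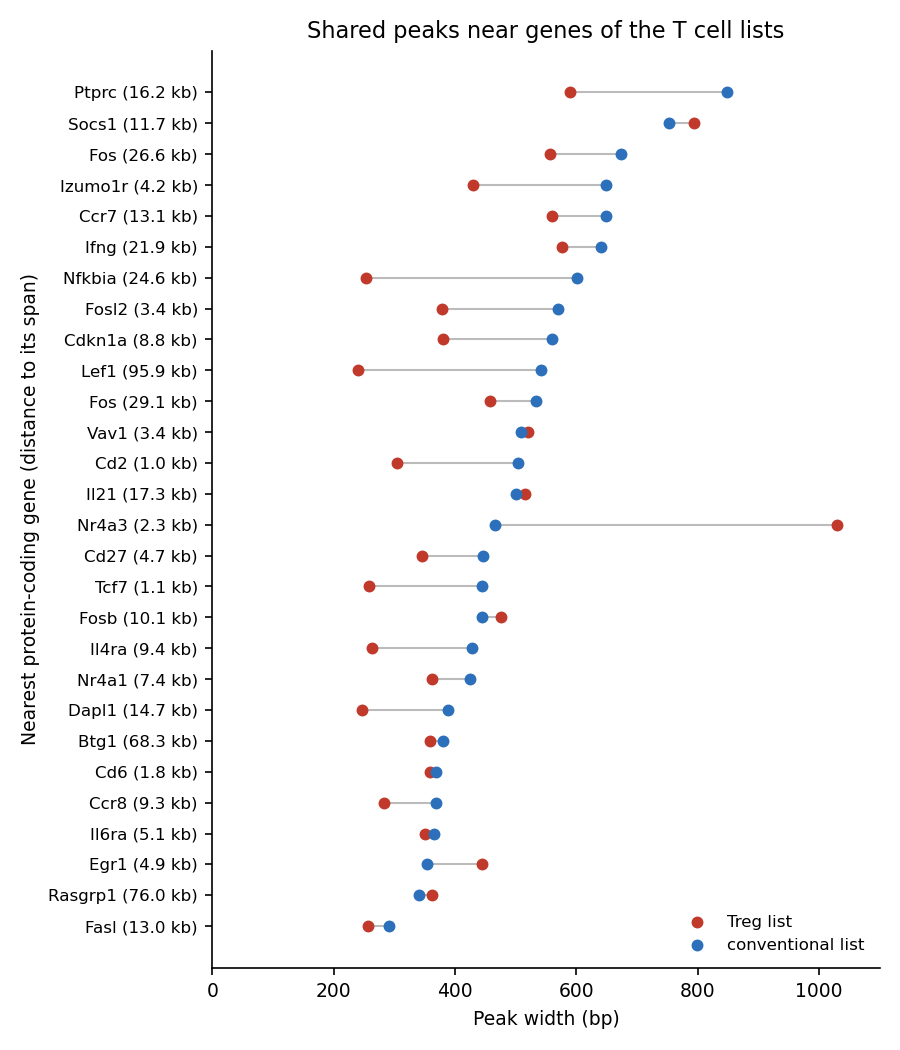
Width (horizontal, bp) in the Treg list (red) and the conventional list (blue) of 28 shared regions nearest to genes of the T cell lists, with the distance to the gene in brackets. Nr4a3 has the widest Treg peak (1029 bp) and Ptprc the widest conventional peak (848 bp).

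Some genes near these regions had a peak at their own ends as well. A shared peak within 1 kb of an end was found at 28 of the 224 nearest genes (12.5%, 8.47% to 17.6%), against 5.28% of all protein-coding genes. The share was also 12.5% (8.86% to 17%) for the 280 genes nearest to unshared conventional peaks between genes. A Treg peak was found at an end of 41 of the 224 (18.3%, against 7.92% of all) and a conventional peak at 48 (21.4%, against 12.2%). Among the 28 list genes, Btg1, Tcf7, Ccr7, Nfkbia, Fos and Socs1 had a shared peak at an end.

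The letters CTTTGA, the core of the TCF/LEF site, were searched on both strands together with the longer CTTTGAT, whose matches are also matches of the core. Neither occurred in the 3 windows printed above, of which that of Tcf7 lies inside the gene. Promoters were at hand for 172 of the 224 nearest genes, and 21 of their 220 promoters (9.55%, 6.01% to 14.2%) held CTTTGA, against 4990 of all 31396 (15.9%). Of 1117 promoters that overlapped a shared peak, 202 held it (18.1%, 15.9% to 20.5%). For CTTTGAT the shares were 2.73% for genes near a region, 7.52% under a shared peak and 3.76% for all promoters. These windows are not the regions themselves, whose sequence was not used here.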

How the data were processed

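Tcf1 ChIP-seq peaks of 1 Treg and 1 conventional CD4 T cell library were analysed. Per the submitters' processing notes, FastQC, Bowtie2 2.3.4.1, MACS2 2.1.1 and the mm10 build were used, and their roles, the filter on peaks and any control library are not given in the sources used here. Per the labels' protocols, libraries were amplified by 18 to 21 PCR cycles. The deposited lists give chromosome, start and end for each peak and no score, so peak width was the value per peak. The authors called 3402 Treg and 4519 conventional peaks, the narrowest 240 bp wide in the Treg list and 279 bp in the conventional list.

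Computation used Python 3.11.15, numpy 2.4.6, pandas 2.3.3, scipy 1.17.1 and matplotlib 3.10.9. Positions are 1-based. Gene spans (49993 genes) came from RefSeq on GRCm38.p6, whose primary chromosomes are those of mm10, and strand from its promoter table. A protein-coding gene was assigned if it was the nearest within 100 kb. Of 249 genes in 11 lists, 241 matched on chromosomes 1 to 19. Medians carry binomial order-statistic intervals and shares exact Clopper-Pearson intervals at 95%. With 1 library per cell type no test between cell types was possible. Overlap and placing were tested on simulated data. The regions and gene lists were chosen with earlier results of these data known.

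Named were the 12 widest regions by summed width ranks, the 5 farthest from genes, the longest runs, regions near list genes, genes with at least 3 regions and peaks at the 1 kb limit. The fifth run of that rule was tied among 20 pairs and none was chosen. Other names were chosen after their values were seen. The sequence of the regions was not used here, and a planned motif search in them was left out. The values of 1 region near a list gene are not reported here.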

Additional observations from a re-analysis of the deposited data

Results flagged for a closer look

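Chromosomes X and Y were outside the set described above. They held 8 shared conventional peaks between genes, more than the 3 counts that a count of 0 allows. On chromosome X 4 of 9 conventional peaks between genes were shared, and on chromosome Y 4 of 4. Chromosome Y had 8 conventional peaks in all and chromosome X 49. With 1 library per cell type, no group of samples was large enough for a search for outlying samples.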

How the results depend on the processing

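For 8 results, 91 values were computed under 15 alternatives, and 80 stayed within the interval of the main value or, for counts, within 1.5 times of it. With a limit of more than 5 kb from gene ends, 187 regions remained, at a median of 13094 bp from a gene, with 11 runs and 15 list genes. Among peaks above the median width of their own list there were 130 regions, with median widths of 504 bp in Treg and 556 bp in conventional cells, 9 runs and 13 list genes. With protein-coding spans alone there were 434 regions and 36 runs, at or just under the limit of 1.5 times. The median distance to a protein-coding gene was then 19194 bp. When at least 0.5 of each peak had to overlap, 40.5% of conventional peaks between genes were shared. These shifts follow from the construction of the alternatives. The median log2 width ratio ran from -0.20 to -0.16 in the 11 alternatives that bear on it. Leaving out the longest run or keeping 1 conventional peak per Treg peak, both chosen after seeing the data, gave 284 and 288 regions. Alternatives for the motif search were not run. No paired analysis was possible because each cell type had 1 library, and for the same reason no replicate could be left out. Depth is unknown, so a peak absent from a list may have been missed.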

Other observations

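The regions given next, near other immune genes, were chosen with their values in view, except those of Irf2bp2, named for its count of regions. Cxcr4, the receptor for the chemokine Cxcl12, had a pair of regions 19639 and 22781 bp upstream on chromosome 1, with 558 and 394 bp in Treg and 554 and 445 bp in conventional cells. Il6st, which encodes the shared signalling chain of interleukin 6 family receptors, had a pair 39161 and 36388 bp upstream on chromosome 13, with 471 and 509 bp in Treg and 688 and 529 bp in conventional cells. In the cluster of Gimap genes, GTPases of lymphocytes, a region 5989 bp from Gimap1 had 402 bp in Treg and 921 bp in conventional cells, and one 3327 bp from Gimap7 had 561 bp in Treg and 642 bp in conventional cells. Zfp36, whose product binds and destabilises messenger RNA, had a region 1224 bp downstream with 339 bp in Treg and 557 bp in conventional cells. Irf2bp2, a gene for a transcriptional corepressor, was nearest to 3 regions, with 437, 385 and 298 bp in Treg and 424, 556 and 295 bp in conventional cells.

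The lowest width ratio was that of a region 49621 bp from the transfer RNA gene n-TEttc7 on chromosome 7, with 245 bp in Treg and 836 bp in conventional cells (log2 -1.77). Outside the dense stretches of chromosome 6 the highest was that of a region 23166 bp upstream of Hephl1, with 889 bp in Treg and 279 bp in conventional cells (log2 1.67).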
